A study of Mus musculus with 2 samples.

Results

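The cells described here were the bulb melanocytes of the mouse hair follicle (HF) that carried the most transcripts of 6 proliferation genes, 187 of the 3734 bulb cells that passed the filters and of 15337 cell barcodes in both libraries. A bulb cell was kept if it had more than 5000 unique molecular identifiers (UMIs, each counting 1 captured RNA molecule), less than 5% of them from mitochondrial genes, at least 1 UMI of the melanocyte gene *Dct*, and fewer than 3 UMIs of the keratin genes *Krt10* and *Krt14* together. The 187 cells were selected on a measured value, the share of a cell's UMIs that came from *Mki67*, *Top2a*, *Cenpf*, *Ccnb1*, *Cdk1* and *Birc5*, of which they were the top 5%. These 6 genes are left out of every result. The remaining genes were measured in the same cells, so their differences from the other 3547 bulb cells describe the selection and are not a test of it.

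Bulb melanocytes are the mature pigment cells that sit around the dermal papilla of a growing HF and hand melanin to the forming hair. A dividing cell passes through S phase, in which DNA is copied, and through G2 and mitosis (G2/M), in which the copies are condensed, aligned on a spindle and pulled apart. Transcripts for these steps are made in waves, so that genes of DNA replication peak earlier in the cycle than genes of the spindle.

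The study compared melanocyte stem cells (McSCs) with their progeny by droplet single-cell RNA-seq. All mice were *Dct*-rtTA; tetO-H2B-GFP, in which doxycycline given to the animal lets the *Dct* promoter drive a nuclear GFP by which cells were sorted. The bulb library held cells from the dissected hair bulbs of anagen VI back skin of 4 mice at 5 weeks of age, prepared with version 2 of the droplet kit. The early-anagen library held McSCs from 4 mice depilated at 8 weeks and taken 4 days later, prepared with version 3. Each condition was 1 library, and cells of a library are not replicates. No p-value was therefore computed, and each 95% interval below is an exact interval that covers counting error only.

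The bulb library had 4327 barcodes and 58161397 UMIs, and 86.3% of its barcodes passed the filters. The early-anagen library had 11010 barcodes and 116800173 UMIs, of which 2785 barcodes passed the same filters with a minimum of 10000 UMIs. The libraries shared 1 barcode, and 0 after the filters. The 187 cells held a median of 15216 UMIs and 3633 genes, against 14229 UMIs and 3401 genes in the other bulb cells. Levels are given as CPM, the UMIs of a gene summed over a group and scaled to a group total of 1000000. *Dct* itself was at 13348 CPM in the 187 cells and at 16026 CPM in the others, with UMIs in every cell of both groups as the filter requires.

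The score ran from 55.8 selection-gene UMIs per 10000 UMIs down to a cut-off of 1.11, with a median of 3.05. The last 3 cells inside the cut-off had 1.12, 1.11 and 1.11 per 10000, each from 1 UMI among 8917, 8987 and 9008 UMIs. The first cells outside had 2 UMIs among 18079 and 18095, or 1.11 per 10000 each, and 1 among 9413, or 1.06. At its lower end the group was thus set by single UMIs. Of the 187 cells, 18 had only 1 selection-gene UMI and 41 had 2, whereas 64 had 10 or more. UMIs of at least 3 of the 6 genes were found in 79 cells, and of 1 or 2 genes in 108. These sets, with medians of 19073 and 13696 UMIs per cell, are described separately where they differ. They were split on the selection genes, so their differences in cell cycle genes also describe the selection. In all, 3199 of the 3734 bulb cells (85.7%) had no UMI of any of the 6 genes, and 348 cells below the cut-off had at least 1.

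**Figure D1:**
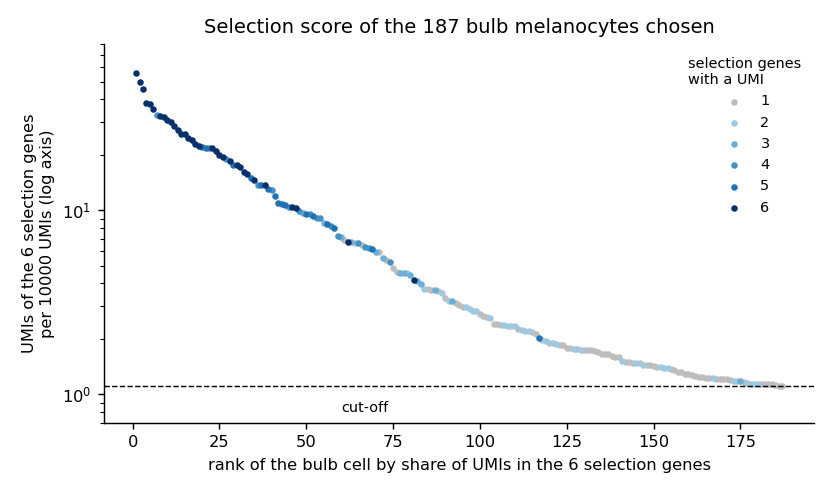
Selection score of each of the 187 bulb melanocytes (vertical log axis, UMIs of the 6 selection genes per 10000 UMIs) by rank (horizontal axis), coloured by how many of the 6 genes had a UMI in the cell. The dashed line is the cut-off of 1.11, and the 33 cells with all 6 genes sit mostly at the left.

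Melanocyte identity was checked with marker lists. All 8 melanocyte markers were detected, which for *Dct* was fixed by the filter and the sort. Their summed level, *Dct* included, was 57837 CPM in the 187 cells and 67986 CPM in the other bulb cells. The most abundant was *Mlana*, which the filter did not use, at 18379 against 20438 CPM. Immune markers were at 8.90 and 8.76 CPM, with *Ptprc* and *Cd3e* at 0 in the 187 cells, and the gene with the most UMIs was *Lyz2*. Endothelial and red cell markers were at 0.330 and 0.776 CPM, from *Kdr* alone in the 187 cells. Markers of hair epithelium were higher in the 187 cells as a whole. Epithelial keratinocyte markers summed to 118 CPM against 52.4, led by *Krt17*, with 8 of 14 genes detected and *Krt15* and *Krt1* at 0. Hair matrix and shaft markers summed to 78.5 against 52.5 CPM, led by *Tchh*, with 9 of 21 detected and *Shh* and *Foxn1* at 0. In the 79 cells with 3 or more selection genes these sums were 42.2 and 18.2 CPM, and in the 108 with 1 or 2 they were 195 and 141 CPM. Dermal papilla and fibroblast markers were at 9.23 against 1.15 CPM, led by *Dcn*, whose 20 UMIs all came from 1 cell.

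Most of that epithelial RNA lay in 3 of the 187 cells, each with 10 or more hair epithelial UMIs per 10000, and in 22 of the other bulb cells. The 3 cells had 90.1, 593 and 13.4 pigmentation UMIs per 10000, where the median of the 187 cells was 711 and the lowest of the remaining 184 was 235. They held 3, 171 and 2 *Dct* UMIs. The cell with 2 *Dct* UMIs was also the source of the *Dcn* UMIs. Without these 25 cells, epithelial keratinocyte markers were at 6.01 and 3.79 CPM and hair matrix and shaft markers at 13.4 and 7.99 CPM. In the 78 of the 79 cells that were left, these sums were 3.92 and 13.7 CPM (log2 ratios 0.05, -1.41 to 1.20, and 0.78, 0.07 to 1.41). The order against the other bulb cells thus depended on the cells of mixed content. All the hair UMIs of these 78 cells were of *Krt71*, a keratin of the inner root sheath. The S phase, G2/M and pigmentation sums given below were then 2881, 4047 and 70380 CPM in the remaining cells, so those results were as large without the cells of mixed content. *Krt71* was at 10.4 against 3.86 CPM without the 25 cells. The other hair matrix and shaft markers together were then not higher in the selected cells.

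Genes of DNA replication were higher in the selected cells. The 43 S phase genes summed to 2879 CPM in the 187 cells and 513 CPM in the other bulb cells, a log2 ratio of 2.49 (2.45 to 2.52). The sum was 4664 CPM in the 79 cells with 3 or more selection genes and 1041 CPM in the 108 with 1 or 2, so that the smaller set carried most of the difference. Genes with a mean of at least 10 CPM over both groups were compared singly. Of 6672 such genes, 273 (4.09%) were at least 2-fold higher in the 187 cells and 6 (0.0899%) at least 2-fold lower, with a median log2 ratio of 0.01 over all of them. The 34 S phase genes that reached this level had a median log2 ratio of 2.74, and 33 of them were at least 2-fold higher. As 19 of the 34 were under 10 CPM in the other cells and entered through the selected cells alone, nothing is read from that count.

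*Rrm2*, the small subunit of the reductase that supplies deoxynucleotides, was at 361 CPM in the 187 cells and 8.29 CPM in the others (log2 ratio 5.44, 5.28 to 5.61). It had a UMI in 52.9% of the selected cells and in 9.36% of the others. *Pcna*, the sliding clamp of DNA polymerase, was at 341 against 90.5 CPM (log2 ratio 1.91), and was thus common in both groups. *Mcm5* and *Mcm6*, subunits of the replicative helicase, were at 88.4 against 6.74 and at 86.1 against 10.8 CPM. *Gmnn*, the inhibitor that prevents a further firing of origins, was at 87.7 against 12.2 CPM. *Ubr7* had the smallest ratio of the 34, with 33.3 against 23.2 CPM (log2 ratio 0.52).

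The 49 genes of G2/M summed to 4028 CPM in the 187 cells and 923 CPM in the others, a log2 ratio of 2.13 (2.10 to 2.15). The sum was 6767 CPM in the 79 cells with 3 or more selection genes and 1207 CPM in the other 108 cells. The selection genes are mostly genes of G2/M, so the split itself set this order and nothing is read from it. The 35 genes with enough UMIs had a median log2 ratio of 4.95, 29 of them at least 2-fold higher, where 4.09% of all genes were. As 21 of the 35 were under 10 CPM in the other bulb cells, nothing is read from that count. *Jpt1*, *Tubb4b* and *Gas2l3* belonged to this list and were also found below the cut-off. *Jpt1* was at 506 against 386 CPM. *Tubb4b* and *Gas2l3* were at 140 and 64.6 CPM in the 5% of bulb cells ranked next below the cut-off. The level of this list in the other bulb cells therefore came in part from genes that were not confined to the selected cells.

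The 12 genes of at least 20 CPM with the largest ratios were *Nusap1*, *Ccna2*, *Pbk*, *Hmmr*, *Ube2c*, *Prc1*, *Pclaf*, *Aurkb*, *Nuf2*, *Plk1*, *Tpx2* and *Ccnb2*, with log2 ratios from 10.35 down to 7.63. *Nusap1*, which bundles spindle microtubules, had 300 UMIs in 51 of the 187 cells and 4 UMIs in 4 of the 3547 others. Of these 300 UMIs, 299 came from the 79 cells with 3 or more selection genes. *Ccna2*, the cyclin of S phase and G2, had 229 UMIs in 63 cells against 4. *Ube2c*, the ubiquitin-conjugating enzyme of the anaphase-promoting complex, had 635 UMIs in 79 cells against 19. *Plk1*, a kinase that drives entry into and passage through mitosis, had 122 UMIs in 40 cells against 9. *Ccnb2*, a mitotic cyclin, differed from these genes in that 88 of its 533 UMIs came from the 108 cells with 1 or 2 selection genes. *Kif2c*, a kinesin that takes microtubules apart at centromeres, had 66 UMIs in 34 of the 187 cells and 0 in the others. Against a floor of 3 UMIs over the whole of the other group, it was at least 383-fold higher.

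The promoters of the G2/M genes with the largest ratios are shown because genes of late cell cycle phases are known to carry a cell cycle homology region, here searched as TTTGAA, and CCAAT boxes, searched as CCAAT, each on both strands. The sequences are from RefSeq (GRCm38.p6, the build of the count files), run 5′ to 3′ on the strand of the gene from 250 bases before to 50 after the transcript start used in the RefSeq promoter table, which for *Hmmr* is not the outer end of the gene, and have matches in capitals. ATTGG is CCAAT on the other strand, and TTCAAA is TTTGAA on the other strand.
*Nusap1*, chr2:119618048-119618347, plus strand: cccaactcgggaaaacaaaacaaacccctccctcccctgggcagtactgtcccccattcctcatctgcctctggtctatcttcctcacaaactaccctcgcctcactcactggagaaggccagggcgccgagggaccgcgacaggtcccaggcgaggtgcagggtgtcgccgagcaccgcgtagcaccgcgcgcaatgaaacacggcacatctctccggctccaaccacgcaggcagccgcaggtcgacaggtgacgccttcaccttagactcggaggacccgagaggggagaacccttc
*Hmmr*, chr11:40733388-40733687, minus strand: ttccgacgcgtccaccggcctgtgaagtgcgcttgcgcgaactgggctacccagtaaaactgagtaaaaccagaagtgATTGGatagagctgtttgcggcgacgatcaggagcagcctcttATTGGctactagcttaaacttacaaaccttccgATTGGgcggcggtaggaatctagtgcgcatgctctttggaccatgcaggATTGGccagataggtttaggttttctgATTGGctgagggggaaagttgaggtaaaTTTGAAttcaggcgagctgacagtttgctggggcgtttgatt
*Ube2c*, chr2:164769679-164769978, plus strand: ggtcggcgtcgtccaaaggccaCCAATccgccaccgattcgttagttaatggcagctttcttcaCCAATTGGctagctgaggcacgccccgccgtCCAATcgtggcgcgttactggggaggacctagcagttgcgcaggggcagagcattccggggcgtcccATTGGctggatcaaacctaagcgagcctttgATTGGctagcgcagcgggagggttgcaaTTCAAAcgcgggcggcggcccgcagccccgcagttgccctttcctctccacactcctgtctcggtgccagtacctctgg
*Hmmr*, which encodes a spindle and hyaluronan-binding protein, had 1 TTTGAA and 5 CCAAT matches in this window. *Ube2c* had 1 and 6, of which a pair of CCAAT matches on opposite strands overlap in CCAATTGG. *Nusap1* had none of either. Of the 27 G2/M genes of at least 20 CPM, 24 matched an entry of the promoter table, and 15 of the 24 (62.5%) held TTTGAA, 19 (79.2%) held CCAAT and 13 held both. Among all 32851 promoters of the same length, 17.9% held TTTGAA, 37.4% held CCAAT and 6.95% held both. A match of these letters is a description of the sequence, and binding was not measured.

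The rise of both gene groups followed the rank of the score. In the top 1% of bulb cells (n = 38) the S phase genes summed to 4692 CPM, in the next 1% (n = 37) to 4335 and in the next 3% (n = 112) to 1426. Below the cut-off, they summed to 683 CPM in the next 5% (n = 187) and to 504 in the remaining 90% (n = 3360). The G2/M genes took the values 9600, 3971, 1339, 960 and 921 CPM in the same order. The 6 selection genes are themselves mostly genes of G2/M, so nothing is read from the steeper fall of that group. *Ube2c* was at 713 and 83.6 CPM in the top 1% and the next 1%, and *Aurka*, a kinase of the spindle poles, at 229 and 56.8 CPM. *Ccne1*, the cyclin of the entry into S phase, was at 120 and 110 CPM in the same bins and at 26.0 CPM in the next 3%.

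**Figure D2:**
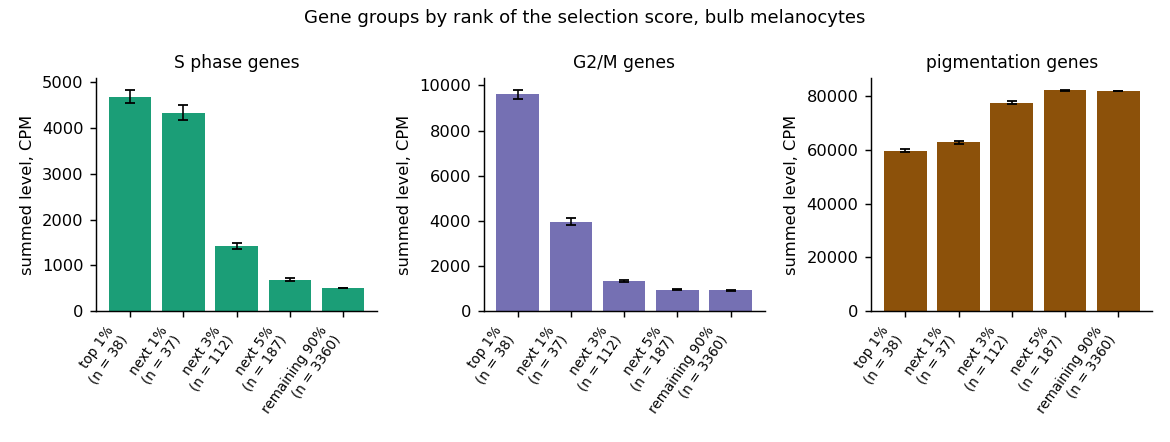
Summed level in CPM (vertical axes, from 0) of the S phase, G2/M and pigmentation genes in bulb melanocytes binned by rank of the selection score, with 95% counting intervals as bars. G2/M genes drop from 9600 to 3971 CPM between the first bins, S phase genes from 4692 to 4335, and pigmentation genes rise from 59661 to 81898 CPM across the bins.

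Single cells were compared after each had been thinned at random to 5000 UMIs, to remove differences in depth. At this depth the other bulb cells had a median of 2 S phase and 4 G2/M UMIs. The 79 cells with 3 or more selection genes had medians of 25 and 30, and the 108 cells with 1 or 2 had medians of 2.5 and 5. By a limit of 10 UMIs, 53 of the 187 cells (28.3%) were high in both groups, 38 (20.3%) in G2/M genes alone, 9 (4.81%) in S phase genes alone and 87 (46.5%, 39.2 to 54.0) in neither. Of these 87 cells, 85 belonged to the 108 with 1 or 2 selection genes. In the other bulb cells 3419 of 3547 (96.4%) were high in neither group, and 11 (0.310%) in both. Spearman's rho between S phase and G2/M UMIs was 0.58 over the 187 cells and -0.01 over the 79 cells, all of 1 library and at equal depth, given as a description.

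**Figure D3:**
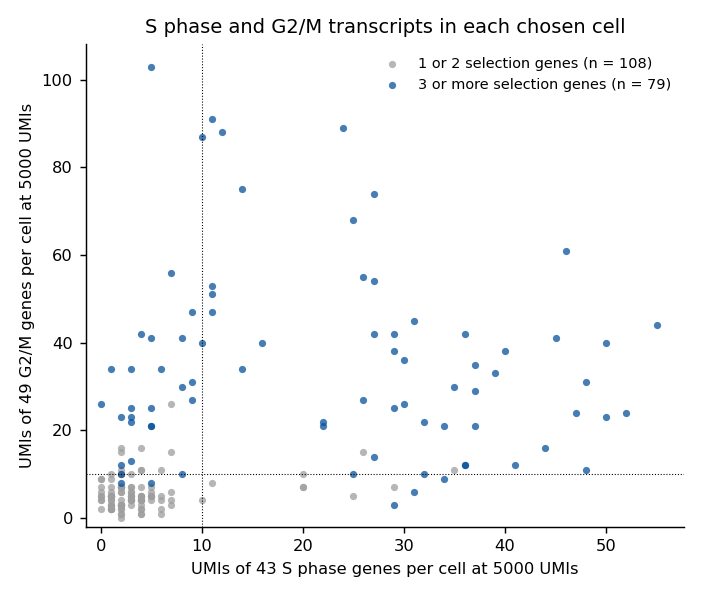
UMIs of the 43 S phase genes (horizontal axis) against UMIs of the 49 G2/M genes (vertical axis) in each of the 187 selected cells, thinned to 5000 UMIs, with dotted lines at 10 UMIs. Cells with 1 or 2 selection genes (grey, n = 108) crowd the lower left, and cells with 3 or more (blue, n = 79) spread along and above both lines.

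Replication-dependent histone genes, whose transcripts are made in S phase and mostly lack a poly(A) tail, summed to 288 CPM in the 187 cells and 98.4 CPM in the others (log2 ratio 1.55, 1.44 to 1.65). Of the 47 genes, 17 had no UMI in the selected cells. *Hist1h2ap*, for histone H2A, was at 55.1 against 0.284 CPM, with 165 of its 167 UMIs in the 79 cells with 3 or more selection genes. *Hist1h2bc* was at 108 against 40.9 CPM and was thus found outside the selected cells also. Reads of near-identical histone copies may have been assigned to either copy, so the values of single histone genes are uncertain.

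The 24 chromatin and tubulin genes of dividing cells summed to 8939 CPM against 3162 CPM, and 20 of them were at least 2-fold higher, where 4.09% of all genes were. As 6 of the 24 were under 10 CPM in the other cells, nothing is read from that count. *H2afz*, a histone variant with polyadenylated transcripts, was at 2143 against 632 CPM (log2 ratio 1.76). *Stmn1*, which destabilizes microtubules, was at 421 against 16.4 CPM (log2 ratio 4.68), with a log2 ratio of 3.37 in the cells with 1 or 2 selection genes. *Tk1*, thymidine kinase, was at 114 against 0.606 CPM. *Pttg1*, or securin, which holds back the separation of sister chromatids, went the other way, with 93.3 against 120 CPM (log2 ratio -0.36, -0.53 to -0.19).

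Regulators of the entry into the cycle gave mixed values. *E2f1*, a transcription factor of S phase genes, and *Ccne1* were at 62.6 against 4.81 and 67.9 against 3.86 CPM. *Ccnd2*, a D cyclin, was at 509 against 603 CPM (log2 ratio -0.24, -0.32 to -0.17), and at 456 CPM in the 79 cells with 3 or more selection genes. *Cdk4*, its kinase partner, was at 481 against 367 CPM (log2 ratio 0.39). Of the INK4 inhibitors of that kinase, most were higher. *Cdkn2c* (p18) was at 78.1 against 8.87 CPM (log2 ratio 3.14, 2.91 to 3.37), *Cdkn2a* (p16 and p19ARF) at 21.4 against 5.90 CPM (log2 ratio 1.86) and *Cdkn2d* (p19) at 170 against 92.8 CPM (log2 ratio 0.87), while *Cdkn2b* (p15) was at 8.24 against 10.6 CPM (log2 ratio -0.36, an interval that includes 0). *Cdkn1b* (p27), an inhibitor of cyclin-dependent kinases in resting cells, was low in both groups, at 9.23 and 12.8 CPM. *Cdkn1a* (p21) was at 209 and 195 CPM, with an interval of the log2 ratio from -0.02 to 0.22. The 15 p53 response genes, a list that did not include *Cdkn1a*, summed to 580 and 625 CPM.

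Pigmentation genes were slightly lower in the selected cells. The 23 genes summed to 69814 CPM in the 187 cells and 81905 CPM in the others, a log2 ratio of -0.23 (-0.24 to -0.22). Along the rank of the score the sum was 59661, 62746 and 77530 CPM in the 3 bins of selected cells, and 82031 and 81898 CPM in the bins below the cut-off. Of the 22 genes tested, 18 had an interval below 0 and 1 above it, where 15.2% and 22.5% of the 6672 genes did, and 0 passed 2-fold. *Mlana*, a melanosome protein, was at 18379 against 20438 CPM. *Tyr*, the rate-limiting enzyme of melanin synthesis, was at 1547 against 1890 CPM (log2 ratio -0.29, -0.33 to -0.25). *Tyrp1* and *Pmel*, for a melanin enzyme and the fibril protein of melanosomes, had log2 ratios of -0.30 and -0.26. *Slc7a11*, the cystine transporter that feeds pheomelanin synthesis, was the exception, at 65.0 against 42.1 CPM (log2 ratio 0.63, 0.41 to 0.84). In the 108 cells with 1 or 2 selection genes it was at 44.8 CPM (log2 ratio 0.09, -0.28 to 0.44), and in the 79 at 84.5 CPM (1.01).

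*Oca2*, which encodes a melanosomal ion transporter (chromosome 7, 56239593 to 56536518, GRCm38.p6), had the lowest ratio of the 22 pigmentation genes. It was at 347 CPM (327 to 369) in the 187 cells and 566 CPM (559 to 572) in the others, a log2 ratio of -0.70 (-0.79 to -0.62). In the 79 cells with 3 or more selection genes it was at 233 CPM (log2 ratio -1.28), and in the 108 with 1 or 2 at 465 CPM (-0.28). By rank of the score, *Oca2* was at 208, 248, 454, 552 and 566 CPM. At 5000 UMIs per cell it was detected in 49 of the 79 cells (95% interval 50.4% to 72.7%) in 78.7% (69.8 to 86.0) of the 108 and in 87.2% (86.0 to 88.3) of the other bulb cells.

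**Figure D4:**
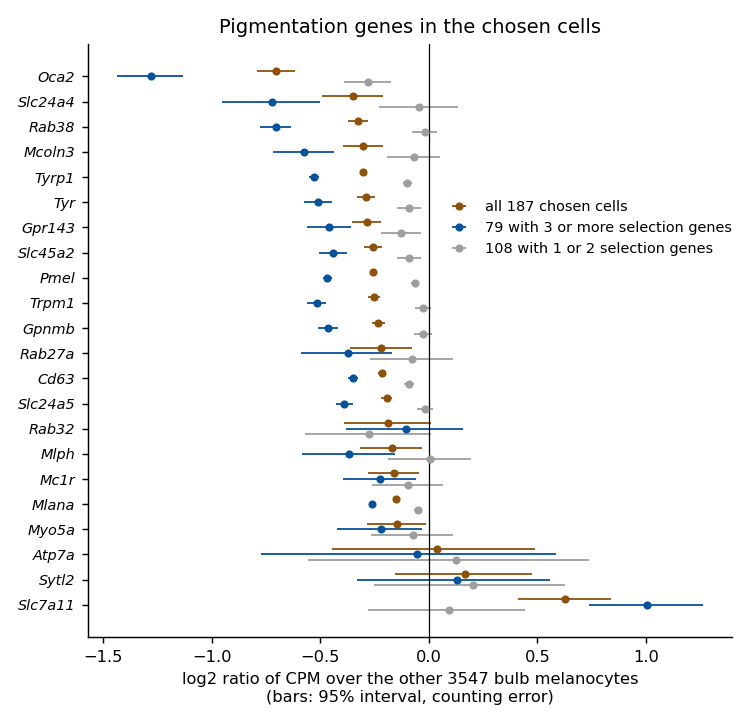
Log2 ratio of CPM over the other 3547 bulb melanocytes (horizontal axis, bars are 95% counting intervals) of 22 pigmentation genes in all 187 selected cells, in the 79 with 3 or more selection genes and in the 108 with 1 or 2. *Oca2* lies lowest, at -0.70, -1.28 and -0.28, and *Slc7a11* highest in the 187 and the 79 cells.

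The factors that specify melanocytes were near the same level as a sum, with 968 and 1001 CPM for 14 transcription factors (log2 ratio -0.05, -0.10 to 0.01). *Mitf*, the master regulator of melanocytes, was at 348 against 328 CPM (log2 ratio 0.08, -0.01 to 0.17), and *Pax3* at 146 against 141 CPM. *Sox10*, which acts upstream of *Mitf*, was lower at 126 against 157 CPM (log2 ratio -0.31), as was *Tfap2b* at 53.7 against 77.7 CPM (-0.53). In the 79 cells with 3 or more selection genes *Tfap2b* was at 35.7 CPM (log2 ratio -1.12). Receptors for signals of the niche summed to 1275 against 1461 CPM. *Ednrb*, the endothelin receptor, was at 1034 against 1222 CPM (log2 ratio -0.24, -0.29 to -0.19), whereas *Kit*, the receptor for stem cell factor, was at 118 against 107 CPM with an interval of -0.02 to 0.29. The 16 WNT targets summed to 793 and 811 CPM.

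Growth and nucleolar genes were higher by small ratios. The 16 genes summed to 5165 against 4198 CPM (log2 ratio 0.30, 0.28 to 0.32), and 13 of the 14 tested had an interval above 0, against 22.5% of all genes. *Nop58*, a core protein of small nucleolar RNPs, was at 55.7 against 28.0 CPM (log2 ratio 0.99). *Npm1*, a chaperone of ribosome assembly, was at 709 against 491 CPM (log2 ratio 0.53). The 16 glycolysis genes found in the files summed to 10847 against 10294 CPM.

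Dissociation and stress genes summed to 2486 CPM in the selected cells and 2932 in the others. Of the 15 tested, 12 had an interval below 0 and 2 above it (15.2% and 22.5% of all genes). Among immediate-early transcription factors, *Fos* was at 426 against 652 CPM (log2 ratio -0.61, -0.69 to -0.53) and *Jun* at 379 against 485 CPM (-0.35). The phosphatase gene *Dusp1*, induced with them, was at 169 against 265 CPM (log2 ratio -0.65). The difference was larger in the 79 cells with 3 or more selection genes, where *Fos* was at 291 and *Jun* at 222 CPM. In the 108 others *Jun* was slightly higher than in the bulb cells below the cut-off (log2 ratio 0.16, 0.06 to 0.26). The 2 genes above 0 were *Hsp90aa1*, a chaperone, at 661 against 440 CPM (log2 ratio 0.59), and *Dnajb1*, a co-chaperone, at 68.9 against 57.1 CPM (0.27).

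Among all genes of at least 20 CPM, those with the lowest ratios were *Rnase1*, *Tmem150a*, *Mir22hg*, *Kcnj13*, *Tenm4*, *Mvp*, *Mapk8ip1*, *Rarb*, *Ogt*, *Shkbp1*, *Fosb* and *Ttyh2*, with log2 ratios from -1.15 to -0.76. *Rnase1*, a secreted ribonuclease, was at 43.9 against 97.2 CPM (-1.41 to -0.90). *Kcnj13*, a potassium channel, was at 17.8 against 34.7 CPM. *Rarb*, a retinoic acid receptor, was at 30.3 against 53.2 CPM, and *Ogt*, the enzyme that adds O-linked N-acetylglucosamine to proteins, at 44.2 against 77.1 CPM. Each of the 12 was lower in the 79 cells with 3 or more selection genes than in the 108 with 1 or 2.

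The same cut-off was applied to the early-anagen McSCs, which the selection had not used. There, 1077 of 2785 cells (38.7%, 36.9 to 40.5) were at or above 1.11 selection-gene UMIs per 10000, where the rule had set 5% in the bulb. Median depth was 34529 UMIs in the early-anagen cells above the cut-off and 15216 in the bulb cells. With the cells of both libraries thinned to 5000 UMIs, and the cut-off set again on the thinned bulb cells, the share was 38.8% (37.0 to 40.6). The rule applied at that depth took 253 of the 3734 bulb cells, more than 5%, because all cells tied at the cut-off entered. With 1 library each, the time, age, depilation, kit version and dissociation cannot be told apart from the condition. Depilation is described for the early-anagen mice only. Dissociation used trypsin on skin and epidermis for the early-anagen cells, and collagenase and dispase on dissected bulbs after EDTA. Early-anagen cells above the cut-off had S phase genes at 3505 CPM against 974 CPM below it (log2 ratio 1.85) and G2/M genes at 6695 against 1125 CPM (2.57). As in the bulb, these cell cycle differences describe the split, and nothing is read from their direction. Pigmentation genes were lower above the cut-off in early anagen also, at 18721 against 25520 CPM (log2 ratio -0.45, against -0.23 in the bulb). *Oca2* was at 9.78 against 40.7 CPM in early anagen (log2 ratio -2.06) and *Fos* at 330 against 419 CPM (-0.34). The selected bulb cells thus held 69814 CPM of pigmentation transcripts where the early-anagen cells above the cut-off held 18721 CPM, with S phase sums of 2879 and 3505 CPM.

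Histone transcripts differed between the libraries. They summed to 2717 CPM in the early-anagen cells above the cut-off, with *Hist1h2ap* at 1146 CPM, compared with 288 CPM and 55.1 CPM in the selected bulb cells. Below the cut-off the sums were alike, at 94.2 CPM in early anagen and 98.4 CPM in the bulb. *Pttg1* was at 79.8 against 51.8 CPM in early anagen (log2 ratio 0.62), the opposite direction to the bulb. *Ccnd2* was lower in cells above the cut-off in both libraries, with 99.0 against 179 CPM in early anagen, and *Cdkn2c* was higher in both, with 73.8 against 19.7 CPM. The difference between the libraries was not tested for any gene.

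**Figure D5:**
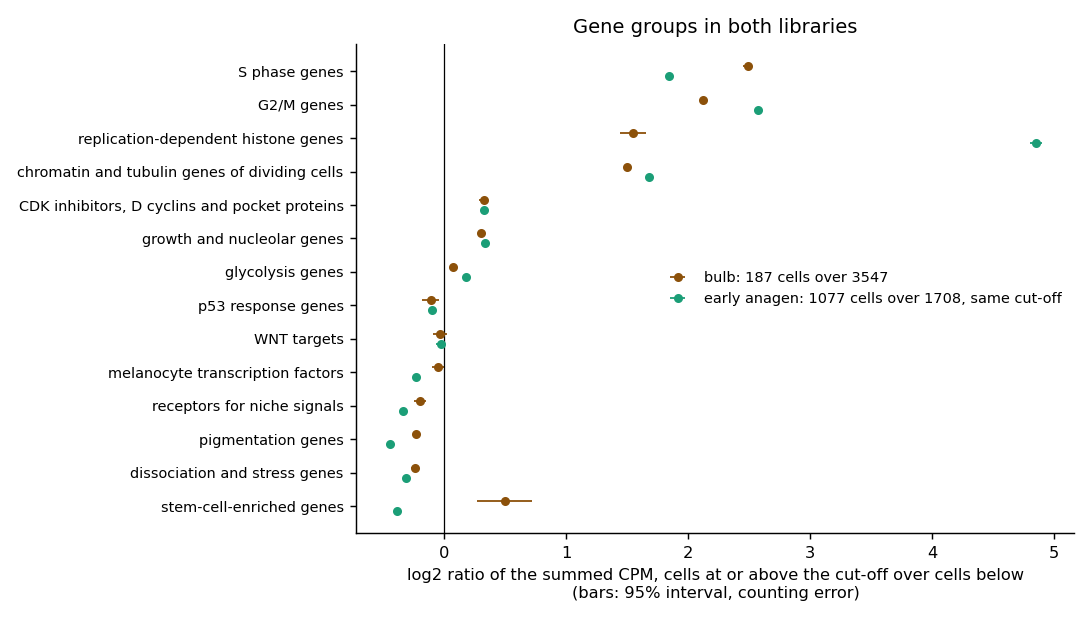
Log2 ratio of the summed CPM of 14 gene groups (horizontal axis, bars are 95% counting intervals) in cells at or above the cut-off over cells below it, in the bulb (187 over 3547 cells) and in early anagen (1077 over 1708 cells). Most groups lie on the same side of 0 in both libraries, histone genes are at 1.55 and 4.85, and stem-cell-enriched genes are at 0.50 and -0.39.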

How the data were processed

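Raw UMI counts were deposited by the authors for every gene and barcode of both libraries. They had been made with Cell Ranger 6.0.1 on mm10, per the submitters' processing notes, and were not normalized. Cell filters were those given above, with a minimum of 10000 UMIs in the early-anagen library. Counts of a group's cells were added up and scaled to CPM. Intervals are at 95%, exact for the quotient of Poisson counts and by Clopper-Pearson for shares. Python 3.11.15, scanpy 1.11.5, scipy 1.17.1, R 4.3.3 and edgeR 4.0.16 were used. The selected cells and the gene lists were chosen with earlier results of these data known. Genes were named from the lists, and as the 12 of largest log2 ratio in each direction at a mean of at least 20 CPM, leaving out the selection genes, mitochondrial and ribosomal protein genes and clone or model names. *Kif2c*, *Krt71* and *Dcn* were singled out after their values had been seen. No doublets were removed. Scrublet called 1 of 3734 bulb cells, too few for its calls to be used, and 4 of the 187 selected and 252 of the 3547 other cells were among the 256 left out in the alternative without the highest scores (6.86% of cells, as scores were tied at the limit of 5%). The comparison was tested on simulated data for 16122 genes. An interval off 0 was found for 99.0% of the 100 genes changed 2-fold and 100.0% of the 100 changed 4-fold. Of 6306 unchanged genes, 95.4% had an interval that held the true value. The simulated sums were drawn from the Poisson model that the intervals assume, without variation among cells. These values therefore check the calculation only, and do not show how well the intervals hold for real cells. Alternatives were other depths, cut-offs and cell filters, TMM scaling and no CPM minimum.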

Additional observations from a re-analysis of the deposited data

Results flagged for a closer look

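The 6 genes listed here as enriched in stem cells (*Col12a1*, *Cdh1*, *Txnip*, *Hspa1a*, *Cd9* and *Sept4*) differed in direction between the libraries, and the difference was not tested. In the bulb they summed to 58.4 CPM in the selected cells and 41.4 CPM in the others, a log2 ratio of 0.497 (0.27 to 0.72). This summed ratio was 0.16 (-0.20 to 0.50) in the 79 cells with 3 or more selection genes and 0.78 (0.48 to 1.06) in the 108 with 1 or 2. In early-anagen McSCs they summed to 1395 CPM at or above the cut-off and 1826 CPM below it, a log2 ratio of -0.388. The bulb value came mainly from *Cd9*, a tetraspanin of the cell surface, at 29.7 CPM (23.9 to 36.5) in the selected cells and 12.4 CPM (11.5 to 13.4) in the others. *Cd9* had a UMI in 23.5% of the selected cells and 8.43% of the others, and its log2 ratio was 1.57 in the cells with 1 or 2 selection genes, 0.88 in those with 3 or more and 1.30 (0.92 to 1.66) without the cells of mixed epithelial content. In early anagen *Cd9* was at 637 and 682 CPM.

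Markers of other cells also went opposite ways in the 187 cells as a whole, and these differences were not tested either. Epithelial keratinocyte markers had a summed log2 ratio of 1.17 in the bulb and -0.391 in early anagen, hair matrix and shaft markers 0.58 and -1.21, and dermal papilla and fibroblast markers 3 and -0.332. In the 79 cells with 3 or more selection genes the epithelial and hair ratios were -0.31 (-0.69 to 0.04) and -1.53, and in the 108 with 1 or 2 they were 1.90 and 1.42. Without the 3 selected cells and 22 other cells of mixed content, the 3 ratios in the bulb were 0.67 (-0.12 to 1.36), 0.74 (0.24 to 1.21) and 1.30 (0.02 to 2.38) in the same order. The epithelial and hair ratios in the remaining 78 of the 79 cells were 0.05 and 0.78. In the remaining 106 of the 108 cells they were 1.11 (0.14 to 1.95) and 0.70 (-0.05 to 1.36). The hair ratios of 0.74 and 0.78 rested on *Krt71*, and the other hair markers together were not higher in the selected cells.

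Bulb barcodes that failed the filters were used in no comparison. Of 593 such barcodes, 38 (6.41%, 4.57 to 8.69) were at or above the cut-off, with a median of 4000.5 UMIs. Of the 38, 23 had too few UMIs, 28 too large a mitochondrial share, 7 too many keratin UMIs and 3 no *Dct*. Their S phase genes summed to 3060 CPM, against 466 CPM in the failed barcodes below the cut-off, and their epithelial keratinocyte markers to 3765 against 1925 CPM.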

How the results depend on the processing

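The pigmentation median stayed below 0 in each of the 12 alternatives, of which 1, without the cells of mixed content, was chosen after seeing the data. The direction of the S phase and G2/M medians was fixed by the selection and the CPM minimum, so that its holding says nothing. Sizes moved with the composition of the selected group, and also where the selected cells stayed the same, with thinned cells or no CPM minimum. The S phase, G2/M and pigmentation medians were 3.27, 6.61 and -0.42 for the top 2% of cells, 1.78, 3.29 and -0.12 for the top 10%, and 3.58, 6.81 and -0.42 for the 79 cells with 3 or more selection genes. They were 2.41, 4.32 and -0.19 with cells thinned to 5000 UMIs, 2.19, 4.03 and -0.16 with the rule applied at that depth (253 cells, 153 of them shared), and 2.27, 4.23 and -0.19 without the 5% of cells with the most UMIs. The G2/M median was 5.27 above 10000 UMIs, 5.58 without the highest Scrublet scores and 5.76 with no CPM minimum. Genes at least 2-fold higher numbered 522 for the top 2%, 131 for the top 10%, 520 for the 79 cells and 1593 with no CPM minimum. Those at least 2-fold lower numbered 125, 1, 124 and 312 in the same order, 43 with thinned cells, 2 with the rule applied at 5000 UMIs and 10 with TMM factors, so the count of 6 was not stable. With TMM factors the S phase, G2/M and pigmentation medians were 2.57, 4.88 and -0.30. The share of early-anagen cells above the cut-off was 24.2% with the cut-off of the top 2% and 45.1% with that of the top 10%. At the median depth of 15216 UMIs, absence of a transcript from a cell does not show that its gene was silent, and no comparison had a replicate library. No paired analysis was possible because each condition is 1 library and the cells compared within it share no replicate numbers.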

Other observations

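Genes outside the lists also differed, and those named here were chosen after their values had been seen. *Ube2s*, the partner of *Ube2c* on the anaphase-promoting complex, was at 907 CPM in the selected cells and 322 CPM in the other bulb cells (log2 ratio 1.49, 1.43 to 1.55), and at 751 against 220 CPM in early anagen. *Spc25*, of the kinetochore, was at 117 against 0.776 CPM, and *Asf1b*, a chaperone of new histones, at 108 against 1.61 CPM. *Ezh2*, the methyltransferase of the Polycomb complex, was at 63.6 against 17.8 CPM. *Alppl2*, an alkaline phosphatase gene, was at 5245 against 3186 CPM in the bulb (log2 ratio 0.72, 0.70 to 0.74) and at 371 against 429 CPM in early anagen (-0.21), a difference in direction that was not tested.

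The nuclear long noncoding RNAs *Malat1* and *Neat1* were lower. *Malat1* was at 11570 against 16444 CPM (log2 ratio -0.51) and at 7825 CPM in the 79 cells with 3 or more selection genes. *Neat1* was at 195 against 310 CPM and at 94.2 CPM in those 79 cells (log2 ratio -1.72), while its log2 ratio was -0.05 in the 108 cells with 1 or 2 selection genes. Both were lower above the cut-off in early anagen also, with log2 ratios of -0.76 each. *Tuba1a*, a tubulin gene, was at 636 against 969 CPM in the bulb, and at 212 against 167 CPM in early anagen. Ribosomal protein genes summed to 114176 against 106055 CPM in the bulb and to 224207 against 237127 CPM in early anagen.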
